A study of Mus musculus with 7 samples.

Results

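Axon guidance genes of the ephrin, Slit and netrin systems were examined in the electroporated cortex of mouse embryos, in which Breasi-CRISPR had changed codon 280 of Ccnd2 from threonine to alanine. The genes were chosen by name, as every Eph receptor, ephrin, Slit1 to Slit3, Robo1 to Robo3, Ntn1, Ntn3, Ntn4, Unc5 receptor, Dcc and Draxin entry whose mean reached 10 normalized counts. The rule took 35 of the 25239 genes listed. They were 7 EphA and 5 EphB receptors, 5 ephrin-A and 3 ephrin-B ligands, 3 Slit ligands, 3 Robo receptors, 3 netrins, and 6 netrin receptor and Draxin genes. Robo3, at 10.9 mean normalized counts, and Epha6, at 21.4, lay just inside the threshold, and Epha1, at 8.27, and Epha10, at 7.36, just outside it.

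Polyadenylated RNA was sequenced from 7 C57BL/6J embryonic brains taken at E15.5, after in utero electroporation at E13.5. The tested brains were 3 Ccnd2 Thr280Ala embryos, 1 from each of 3 litters, and the controls were 4 brains that received a silent CRISPR control, 2 from litter 1 and 1 from each of the other litters. All 7 carried the genotype label Wildtype, and electroporation reaches part of the cells of the dissected region, so that edited and unedited cells were sequenced together. The estimated depth, in reads counted in the listed genes, was 19400000 to 32800000 per library. The authors' deposited table gives, for this comparison, a mean normalized count over all 7 libraries, a log2 fold change and the standard error (SE) of that change, but no value for any brain or for either group. The level of a gene in each brain and the overlap of the groups could therefore not be shown. A log2 fold change above 0 means a higher level in edited brains. Cortical markers were abundant, with mean normalized counts of 1831 for Emx1 and 14403 for Tbr1. Markers of other tissues were present as well. The most abundant were Dlx2 of the ganglionic eminence list at 2859, Col3a1 of the meningeal fibroblast list at 3086 and Ttr of the choroid plexus list at 2576. The dissected region was therefore not cortex alone. Microglial and Cajal-Retzius markers were below 0 in 9 of 9 and 8 of 8, with median log2 fold changes of -0.64 and -0.26. Their median SEs were 0.35 and 0.33. At an unadjusted p below 0.05 (DESeq2 Wald test), 5 of the 9 microglial and 0 of the 8 Cajal-Retzius markers were lower, against 3.66% of tested genes. None of either list was called after adjustment. Because the tissue is a mixture, fewer cells of a type and less RNA per cell cannot be told apart.

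Eph receptors are receptor tyrosine kinases that bind ephrins on neighbouring cells, with EphA receptors preferring the lipid-anchored ephrin-A ligands and EphB receptors the transmembrane ephrin-B ligands. Slits are secreted proteins that repel axons and migrating neurons through Robo receptors. Netrins attract through Dcc and repel through Unc5 receptors, and Draxin is a secreted protein that binds netrin receptors. In the developing cortex these systems guide corticofugal, callosal and thalamocortical axons, and several members also act on progenitors and on the migration of young neurons.

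At an adjusted p below 0.05 (DESeq2 Wald test, adjusted over all tested genes), 0 of the 35 guidance genes differed between edited and control brains, against 0.246% of the 14638 tested genes. At an unadjusted p below 0.05 there were 9 of 35, which is 25.7%, against 5.86% of all tested genes. Of these 9, Epha4, Epha3, Ephb2, Slit2 and Draxin had higher estimates in edited brains, where 2.2% of tested genes were higher at that threshold. Robo1, Robo2, Efna5 and Unc5c had lower estimates, against 3.66% of tested genes. The estimates thus lay on both sides of 0, with 17 of 35 above it, or 48.6%, against 48% of tested genes. The median log2 fold change of the 35 genes was -0.0017, beside -0.006 over all tested genes, while the median size of the change regardless of sign was 0.16 for the guidance genes and 0.10 for all tested genes. None of these genes passed the adjusted test, and the smallest adjusted p, that of Robo1, was 0.107.

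**Figure D1:**
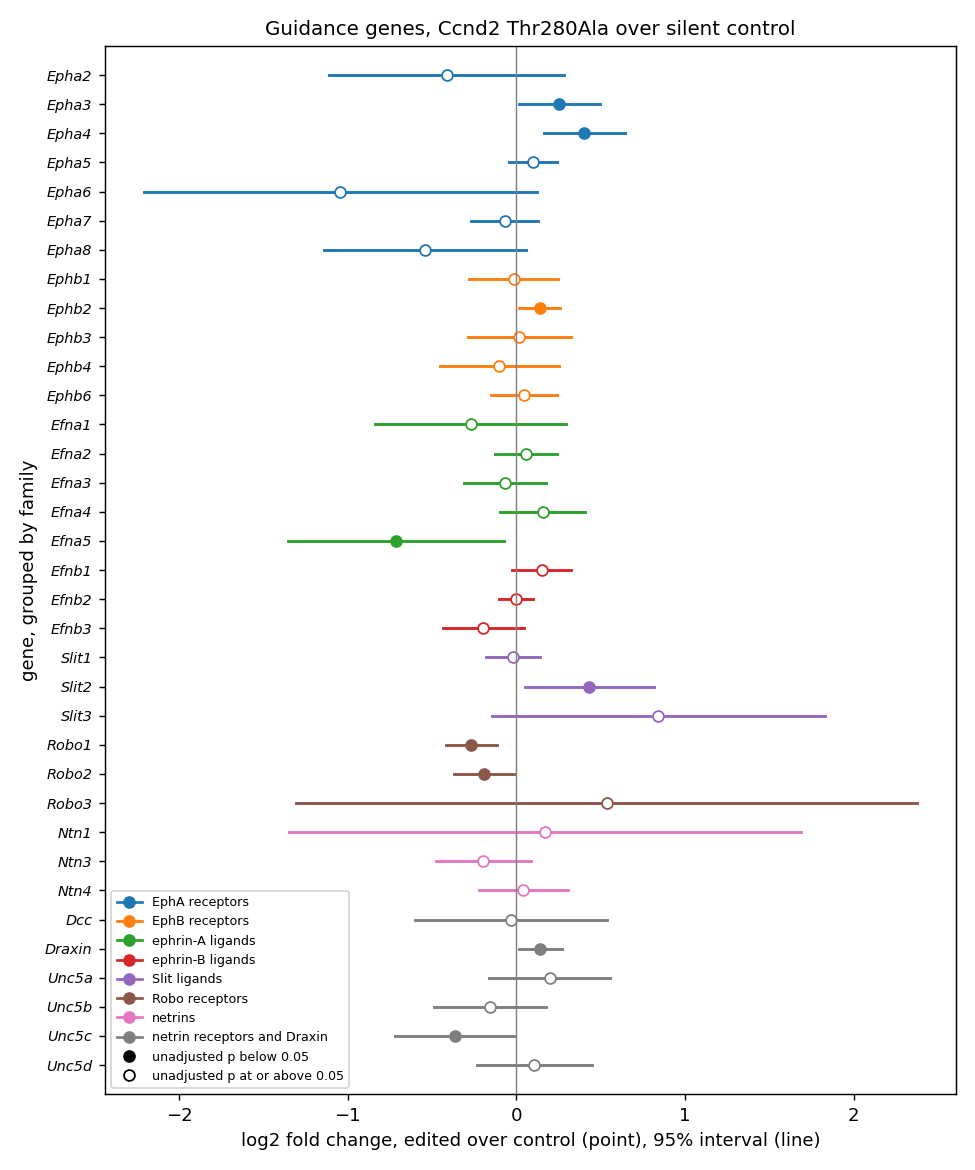
Log2 fold change of edited over control brains (x axis) for each of the 35 guidance genes (y axis), coloured by family, with the 95% interval as a line. Filled points mark the 9 genes with an unadjusted p below 0.05, of which Efna5 at -0.71 and Slit2 at 0.43 lie farthest from 0 on either side, and the intervals of Ntn1, Robo3, Epha6 and Slit3 are the widest.

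Levels were compared per kilobase of exon, as the mean normalized count over all 7 libraries divided by the exon length in the GENCODE M21 annotation. Ephrin-B genes stood highest, with Efnb1 at 2133 and Efnb2 at 1845 normalized counts per kb. Draxin followed at 1278, Epha4 at 889 and Efnb3 at 787 normalized counts per kb. Efna2, Epha3, Robo1, Ephb2 and Robo2 lay between 697 and 444 on the same scale. Among the 3 Slit ligands, Slit1 was the most abundant at 337 normalized counts per kb, while Slit2 stood at 15.6 and Slit3 at 11.5. Dcc stood at 316, and the Unc5 receptors ranged from 15.6 for Unc5c to 303 for Unc5a. At the low end were Epha6 at 4.05 and Robo3 at 1.59 normalized counts per kb. The spread of these levels over brains is not in the table, so neighbours in this order cannot be separated. The exon lengths count every annotated isoform, whichever is expressed.

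**Figure D2:**
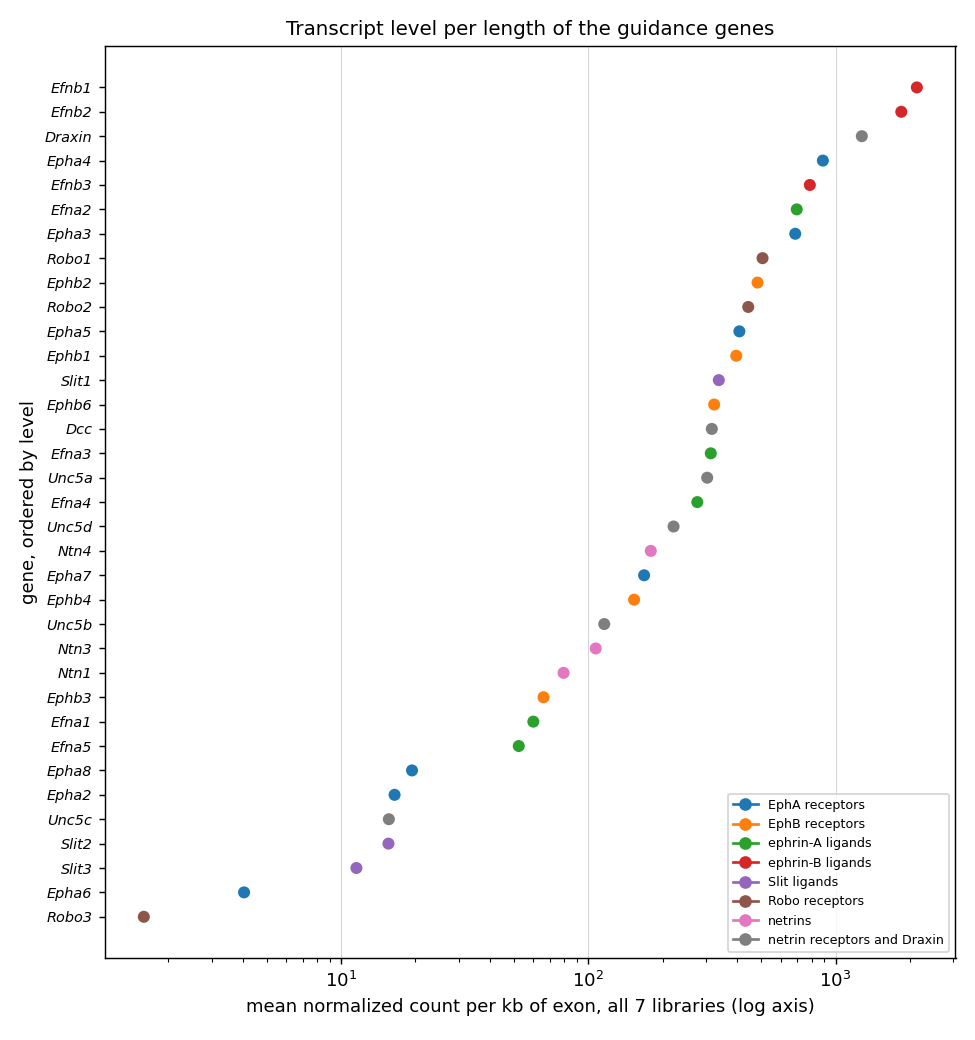
Mean normalized count per kb of exon over all 7 libraries (x axis, log scale) for the 35 guidance genes (y axis, ordered by level), coloured by family. Levels run from 1.59 for Robo3 to 2133 for Efnb1, and the 3 ephrin-B ligands are all among the 5 highest.

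The Slit-Robo system held the smallest p of the 35 genes. Slit2, a secreted ligand made at the midline and by the choroid plexus, had a mean of 396 normalized counts and a log2 fold change of 0.43 (SE 0.20, unadjusted p = 0.0272, DESeq2 adjusted p = 0.713) per the authors' deposited table. Slit3, a further Slit ligand, stood at 0.84 with an SE of 0.50 in the deposited table, at only 70.0 mean normalized counts. Slit1, the most abundant Slit transcript here, was at -0.02 (SE 0.08, adjusted p = 0.999) per the authors' deposited table, with a 95% interval from -0.18 to 0.14. The choroid plexus and hem markers were above 0 in 9 of 9 tested genes, with a median of 2.64 and a median SE of 1.09. Wnt3a had too few counts to be tested. At an unadjusted p below 0.05 (DESeq2 Wald test), 4 of the 9 were higher, against 2.2% of all tested genes. None was called after adjustment. Among these markers Ttr, the main choroid plexus transcript, stood at 5.30 (SE 2.18, DESeq2 adjusted p = 0.583) in the deposited table. Meningeal fibroblast markers were below 0 in 7 of 9, with a median of -0.80 beside a larger median SE of 1.18. Only 1 of these 9 was lower at an unadjusted p below 0.05, against 3.66% of all tested genes. The part of either cell group in the Slit estimates was not tested.

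Robo1 and Robo2, the main Slit receptors of cortical neurons, both had lower estimates in edited brains. Robo1 (chromosome 16, 72308306 to 73046095, plus strand) had a mean of 8368 normalized counts and a log2 fold change of -0.27 (SE 0.08, 95% interval -0.41 to -0.12, unadjusted p = 0.000436, DESeq2 adjusted p = 0.107) per the authors' deposited table, a fold of 0.831. Robo2, on the same chromosome (73891839 to 74411825, minus strand), had a mean of 7534 and a log2 fold change of -0.19 (SE 0.09, 95% interval -0.37 to -0.02, unadjusted p = 0.0318, adjusted p = 0.765) in the deposited table. Their SEs were 1.01 and 1.19 times the median SE of genes of like abundance, that is, within 2-fold of their mean. The SE of Robo1 was larger than that of 52.2% of such genes, and the SE of Robo2 larger than that of 77.3%. Robo3, a divergent family member known for the crossing of commissural axons in hindbrain and spinal cord, was scarce and stood at 0.53 (SE 0.94) per the authors' deposited table. In the same comparison neuronal maturation markers were below 0 in 10 of 13, with a median of -0.09, and 4 of them were lower at an unadjusted p below 0.05, against 3.66% of all tested genes. The part of neuron number or maturity in the Robo estimates was not tested.

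The promoters of Robo1 and Robo2 are shown because these paralogs on chromosome 16 both had lower estimates, though neither was called. A further reason was Lhx2, a LIM homeodomain factor known to regulate both receptors in mouse thalamic neurons. Lhx2 was among the called genes, at 0.49 (SE 0.11, DESeq2 adjusted p = 0.00784) per the authors' deposited table. The part of Lhx2 in the Robo estimates was not tested. Each sequence is the 250 bases before a RefSeq transcript start of GRCm38.p6, 5′ to 3′ on the gene's strand. Capitals mark TAATTG, a form of the homeodomain core, searched on both strands together with TAATTA, the nuclear factor I half-site TTGGCA, the nuclear factor I palindrome and the E-box CANNTG. The half-site can lie within a palindrome. E-box matches are not marked by capitals, and there were 3 in the Robo1 window and 1 in each Robo2 window. The Robo1 window is chr16:72662899-72663148 on the plus strand, inside the longer GENCODE gene model, and 56.0% of its bases are G or C. For Robo2, on the minus strand, the window of the farthest upstream start is chr16:75447294-75447543, and that of the start nearest to the GENCODE gene model is chr16:74411826-74412075. A further Robo2 start between them, at chr16:75092771-75093020, is not shown and holds neither homeodomain motif nor the half-site.
Robo1: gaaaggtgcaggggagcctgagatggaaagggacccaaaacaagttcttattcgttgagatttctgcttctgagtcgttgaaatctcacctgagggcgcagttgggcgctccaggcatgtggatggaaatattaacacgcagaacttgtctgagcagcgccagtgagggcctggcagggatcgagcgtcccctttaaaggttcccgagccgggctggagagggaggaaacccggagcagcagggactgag
Robo2 upstream start: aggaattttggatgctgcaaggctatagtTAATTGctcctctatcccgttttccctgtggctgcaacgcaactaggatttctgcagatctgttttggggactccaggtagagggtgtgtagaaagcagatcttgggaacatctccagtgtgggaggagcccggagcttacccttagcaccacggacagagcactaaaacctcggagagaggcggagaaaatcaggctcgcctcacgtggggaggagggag
Robo2 near start: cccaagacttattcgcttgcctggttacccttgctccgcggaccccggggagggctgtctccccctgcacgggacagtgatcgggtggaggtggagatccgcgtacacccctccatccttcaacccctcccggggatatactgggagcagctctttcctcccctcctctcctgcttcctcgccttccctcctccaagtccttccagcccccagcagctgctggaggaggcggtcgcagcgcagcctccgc
TAATTG occurred at 1 place, in the upstream Robo2 window, starting 221 bases before the transcript start, and TAATTA occurred in none of the windows shown. RefSeq windows matched 30 of the 35 guidance genes, with 35 windows in all. TAATTA was found in 3 of these 35 windows (Efna1, Epha5 and Robo3), which is 8.57%, against 4.84% of all 32851 windows of the same length. TAATTG was found in 2 of 35 (Epha7 and Robo2), or 5.71%, against 7.17% of all windows. TTGGCA was found in 2 of 35 (Epha4 and Ephb2), or 5.71%, against 12.3%, and the palindrome in 0 of 35, against 0.0365%. CANNTG was found in 14 of 35, or 40% of windows, against 66.2%. The guidance windows had a median of 66.0% G or C, against 52.4% over all windows. A match describes letters only, and binding of any factor was not measured.

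Among ephrin-A ligands, Efna5 stood apart in size. Efna5, a repulsive ligand for EphA receptors that is graded across the cortex and thalamus, had a mean of 211 normalized counts and a log2 fold change of -0.71 (SE 0.33, 95% interval -1.35 to -0.07, unadjusted p = 0.029, DESeq2 adjusted p = 0.734) per the authors' deposited table, a fold of 0.61. Its SE was 1.59 times the median of genes of like abundance. Efna2, the most abundant ephrin-A, was at 0.05 (SE 0.09) in the deposited table. Efna1, Efna3 and Efna4, which lie close together on chromosome 3, were at -0.27 (SE 0.29), -0.07 (SE 0.12) and 0.16 (SE 0.13) per the authors' deposited table. Exons of unrelated opposite-strand genes cover 14.1% of the exon bases of Efna3 and 10.5% of those of Efna4, and the sources used here do not say whether reads were counted by strand. In this comparison caudal cortical patterning genes were above 0 in 8 of 10, with a median of 0.31. Rostral ones were below 0 in 9 of 11, with a median of -0.24. At an unadjusted p below 0.05 (DESeq2 Wald test), 4 of the 10 caudal genes were higher, against 2.2% of tested genes. These were Lhx2, Fgfr3, Dmrt3 and Emx1, of which only Lhx2 was called. Of the 11 rostral genes 2 were lower, against 3.66%, and none was called. Whether the position of the dissected region along the cortex bears on Efna5 was not tested.

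Epha4 and Epha3 had the largest upward estimates among the guidance genes more abundant than Slit2. Epha4, a receptor for both ephrin classes that acts in radial glia and neurons of the mouse cortex (chromosome 1, 77367185 to 77515088), had a mean of 7160 normalized counts and a log2 fold change of 0.40 (SE 0.12, 95% interval 0.16 to 0.64, unadjusted p = 0.00104, DESeq2 adjusted p = 0.173) per the authors' deposited table, a fold of 1.32. Epha3, a receptor for ephrin-A5, had a mean of 5974 and a log2 fold change of 0.26 (SE 0.12, unadjusted p = 0.0364, adjusted p = 0.791) in the deposited table. The SEs of both were wide for their abundance, at 1.61 and 1.57 times the median of similar genes, larger than those of 95.3% and 94.6% of them. Epha5 and Epha7, the other abundant EphA receptors, were at 0.10 (SE 0.07) and -0.07 (SE 0.10) per the authors' deposited table. Of the scarce receptors, Epha6, Epha8 and Epha2 were at -1.04 (SE 0.59), -0.54 (SE 0.31) and -0.41 (SE 0.36) in the deposited table, each with an interval that included 0. Apical radial glia markers were above 0 in 12 of 14, with a median of 0.20, and intermediate progenitor markers in 10 of 10, with a median of 0.19. The radial glia markers below 0 were Fabp7 and Slc1a3. At an unadjusted p below 0.05 (DESeq2 Wald test), 5 of the 14 and 4 of the 10 were higher, against 2.2% of tested genes. None of either list was called. The part of these cell types in the estimates of Epha4 and Epha3 was not tested.

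The EphB receptors and ephrin-B ligands had estimates between -0.20 and 0.15. Ephb2, a receptor of callosal and corticofugal axons, had a mean of 6099 normalized counts and a log2 fold change of 0.14 (SE 0.06, 95% interval 0.02 to 0.26, unadjusted p = 0.0272, DESeq2 adjusted p = 0.713) per the authors' deposited table, a fold of only 1.10. Its SE was 0.804 times the median of similar genes. Ephb1, Ephb3 and Ephb6, the last of which lacks kinase activity, were at -0.02 (SE 0.14), 0.02 (SE 0.15) and 0.04 (SE 0.10) per the authors' deposited table. Efnb2, the most abundant of the 35 by mean normalized count at 12648, was at -0.002 (SE 0.05, 95% interval -0.10 to 0.10, adjusted p = 0.999) in the deposited table. Only 0.631% of the 634 genes of like abundance had a lower SE. Efnb1, an X-linked ligand of progenitors and neurons, was at 0.15 (SE 0.09, adjusted p = 0.934) and Efnb3 at -0.20 (SE 0.12, adjusted p = 0.948) per the authors' deposited table. Ephb4, the EphB receptor of venous endothelium, was at -0.10 (SE 0.18) in the deposited table. Endothelial markers, Robo4 among them, were below 0 in 10 of 10 with a median of -0.32. At an unadjusted p below 0.05 (DESeq2 Wald test), 2 of the 10 were lower, against 3.66% of tested genes, and none was called. The part of endothelial cells in the estimates of Ephb4 and of the endothelial ligand Efna1 was not tested.

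Ntn1 and Dcc had the least certain estimates for their abundance. Ntn1, the classical netrin, had a mean of 499 normalized counts and a log2 fold change of 0.17 (SE 0.77, 95% interval -1.35 to 1.69, adjusted p = 0.999) per the authors' deposited table. Its SE was 5.44 times the median of 4217 genes of like abundance and exceeded 99.2% of them. Dcc, the attractive netrin receptor, was at -0.03 (SE 0.29, 95% interval -0.60 to 0.53) in the deposited table, with an SE 3.60 times the median of similar genes. Ntn3 and Ntn4, at -0.20 (SE 0.14) and 0.04 (SE 0.13) per the authors' deposited table, had ordinary SEs, each 1.05 times the median. Markers of the ganglionic eminence, which lies beside the cortex, also had wide SEs, with a median ratio of 5.68 over 12 genes. Wide SEs were not particular to them, since the median ratio was 9.88 over 9 meningeal fibroblast markers and 3.85 over 9 choroid plexus and hem markers. Among the eminence genes Dlx2 and Isl1, factors of the eminence and striatum, reached 9.03 and 9.65, while Lhx6, a factor of interneurons that migrate into the cortex, had 1.35. The part of any of these tissues in the spread of Ntn1 and Dcc was not tested.

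**Figure D3:**
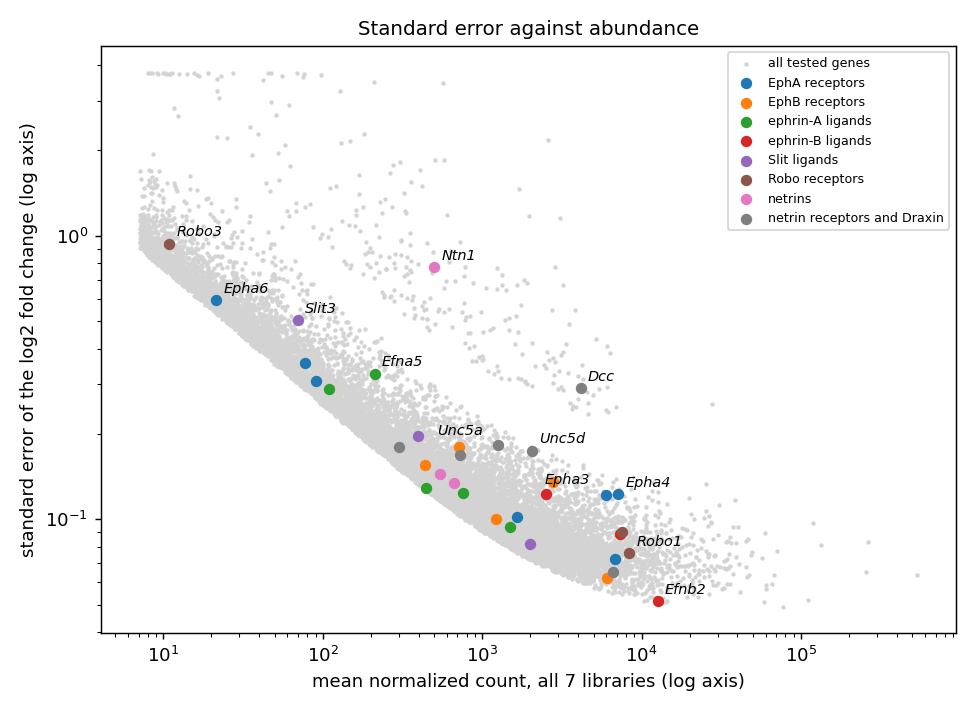
Standard error of the log2 fold change (y axis, log scale) against the mean normalized count over all 7 libraries (x axis, log scale), with all 14638 tested genes in grey and the 35 guidance genes coloured by family. Ntn1 at 0.77 and Dcc at 0.29 lie far above genes of like abundance, whereas Efnb2 at 0.05 lies at the lower edge.

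The repulsive netrin receptors differed among themselves in estimate. Unc5c had a mean of 299 normalized counts and a log2 fold change of -0.37 (SE 0.18, 95% interval -0.72 to -0.01, unadjusted p = 0.0414, DESeq2 adjusted p = 0.807) per the authors' deposited table, a fold of 0.776. Unc5a, Unc5b and Unc5d were at 0.20 (SE 0.18), -0.15 (SE 0.17) and 0.11 (SE 0.17) in the deposited table. Unc5d, a receptor for Flrt2 in migrating cortical neurons, had an SE 1.89 times that of similar genes, and Unc5a 1.74 times. Draxin, which is needed for the forebrain commissures in mice, had a mean of 6644 normalized counts and a log2 fold change of 0.14 (SE 0.07, 95% interval 0.01 to 0.27, unadjusted p = 0.0289, adjusted p = 0.733) per the authors' deposited table, a fold of 1.10.

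Signalling partners of these receptors were counted from 3 lists of the pathway, beside 0.246% of all tested genes called and 5.86% with an unadjusted p below 0.05. The shares at the unadjusted threshold were 8.0% of the Eph and 4.0% of the netrin partners, both near that background, and 25.0% of the Slit-Robo partners. The lists were chosen with earlier results of these data known, so these shares are descriptive only. Of 25 partners of Eph receptors, 0 were called in either direction, and 2 had an unadjusted p below 0.05, both lower. These were Tiam1, an activator of Rac, at -0.29 (SE 0.09, DESeq2 adjusted p = 0.224), and Mmp2, a metalloprotease, at -0.95 (SE 0.42, adjusted p = 0.693) per the authors' deposited table. Of 24 Slit-Robo partners, 1 was called higher and 0 lower, and 4 had higher and 2 lower estimates at an unadjusted p below 0.05. The called gene was Hs2st1, an enzyme that sulfates the heparan chains on which Slit binding to Robo depends, which was 0.26 higher on the log2 scale (SE 0.07, adjusted p = 0.0441) per the authors' deposited table. This call was lost when the DESeq2 p-values were adjusted over all genes with a p-value, where Hs2st1 had an adjusted p of 0.0571. Flrt3, a membrane protein that binds Robo1 and Unc5 receptors, was at 0.43 (SE 0.15, adjusted p = 0.321), and Enah, an actin regulator, at 0.15 (SE 0.06) in the deposited table. The others at an unadjusted p below 0.05 were Ndfip1 at -0.18 (SE 0.08), Srgap1 at -0.15 (SE 0.08) and Gpc1 at 0.22 (SE 0.11) per the authors' deposited table. Srgap1 is a GTPase activator that binds Robo1. Of 25 tested netrin partners, 0 were called and 1 had an unadjusted p below 0.05, the ubiquitin ligase gene Trim67 at -0.18 (SE 0.09, adjusted p = 0.800) in the deposited table. The medians were -0.04 for the Eph, 0.0017 for the Slit-Robo and -0.02 for the netrin partners, beside -0.006 for all tested genes.

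The intervals show what size of change the data leave possible. For 28 of the 35 genes the 95% interval lay inside a 2-fold change in either direction, for 23 inside a 1.5-fold change and for 6 inside a 1.2-fold change. Those 6 were Epha5, Ephb2, Ephb6, Efna2, Efnb2 and Slit1. The 7 genes whose interval reached beyond a 2-fold change were Epha2, Epha6, Epha8, Efna5, Slit3, Robo3 and Ntn1, and of these Ntn1 had the highest mean, 499 normalized counts. Both Robo1 and Robo2 had intervals inside a 1.5-fold change, whereas that of Epha4 reached 1.56-fold higher at its upper end.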

How the data were processed

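The series compares the cortex of 3 edited and 4 control brains, and the values used are those of the 1 table of results deposited by the authors. Per the submitters' processing notes, the tools were cutadapt, featureCounts and DESeq2 and the build mm10. No source used here names the aligner, annotation, strand setting or versions. The mean normalized count, deposited by the authors, is a signal averaged over libraries after scaling by size factors. Log2 fold changes, their SEs, Wald statistics (a score), p-values and adjusted p-values were also deposited by the authors. No gene-level model was refitted, because no counts were used.

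Each fold change is listed under both signs. The direction was read from 694 genes with a single read, which form 7 classes, 3 above 0 and 4 below 0 for the sign used. Fitting treatment and litter together, with a dispersion of 10 in a negative binomial model, rebuilt these values to within 2.84e-05, and 0 assignments were possible with the opposite sign. The fit was tested on simulated data with known fold changes. The classes also gave the size factors and depths. The brains are separate embryos.

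Adjusted p-values covered 14638 genes. Intervals are the estimate with 95% normal limits. Exon lengths are from GENCODE M21 on GRCm38. Calls use an adjusted p below 0.05. All 35 members are given with values. Intervals or p-values are given chiefly for those with an unadjusted p below 0.05 and for the most abundant and the largest Wald statistic of each family. Of each partner list, the genes with an unadjusted p below 0.05 are named. Marker genes such as Ttr, Dlx2, Isl1 and Lhx6, and the partners Ndfip1, Srgap1 and Gpc1, were named after their values were seen, and so were the promoters and motifs chosen. The members and lists were chosen with earlier results of these data known. Alternatives were other adjustments, thresholds, minimum means and centring. Python 3.11.15, pandas 2.3.3 and scipy 1.17.1 were used.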

Additional observations from a re-analysis of the deposited data

How the results depend on the processing

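The count of 0 called guidance genes was the same adjusted over all genes with a p-value, at an adjusted p below 0.10, and at a minimum mean of 100 normalized counts, where the smallest adjusted p, over the genes that passed that minimum, was 0.0902. The count of 9 genes at an unadjusted p below 0.05 was also the same at a minimum of 100, which 30 members passed, and with no minimum. At a minimum of 100 it could not fall, since the lowest mean of the 9 was 211, that of Efna5. The number above 0 was 17, with 18 after centring on the median of tested genes, 15 at a minimum of 100 and 17 with no minimum. The median log2 fold change of the members, -0.0017, changed sign to 0.0047 after centring and to 0.0082 at a minimum of 100, all within the typical SE. All 9 single genes kept their direction and side of 0.05 after centring. The median subtracted was only -0.006, too small to change the direction of any of them. The number of called partner genes was 1, and 0 adjusted over all genes with a p-value, where Hs2st1 had an adjusted p of 0.0571, since more genes are then counted. No paired analysis was possible because the table holds only the authors' comparison, whose model already had the litter as a term, and no values per brain. For the same reason the planned fits without litter, without each brain in turn and with another tool were not run, so whether 1 brain decides a value is not known. Depth limits Robo3 and Epha6 most, at 10.9 and 21.4 mean normalized counts.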
